A study of Mus musculus with 3 samples.

Results

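The 9 genes described here encode cell-surface or secreted proteins through which antigen-presenting and tissue cells restrain or help T cells and phagocytes. They were chosen by name as a family, with earlier results of these data known but no measured value in the rule, and are 9 of the 31053 genes counted in 3 single-cell libraries made from the ears of mice. Their levels were read in cells gated by raw counts of unique molecular identifiers (UMIs, each standing for 1 captured RNA molecule). The adult Lang-DTA library came from ears of untreated 8-week-old Langerin-DTA mice (4 males and 6 females), the adult WT library from 8-week-old C57BL/6J mice (6 males and 4 females), and the young WT library from 4-week-old C57BL/6J mice (5 males and 3 females). Per the labels, wild-type mice in experiments with Langerin-DTA mice were littermates from hemizygous males and wild-type females, and 8 to 10 mice were pooled into each library. In Langerin-DTA mice, human Langerin regulatory sequence drives diphtheria toxin A, which kills epidermal Langerhans cells; other antigen-presenting cells remain. Lymphatic endothelial, blood endothelial, CD45+ and remaining CD45-CD31- cells were sorted and mixed in equal parts, so shares of cell types follow the sort. Each condition had 1 library, so every difference below has no replicate check and no p-value, and all intervals cover counting error only.

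CD80 and CD86 bind CD28 on T cells, which supports their activation, and CTLA-4, which restrains it. PD-L1 (Cd274) and PD-L2 (Pdcd1lg2) bind the inhibitory receptor PD-1, and PD-L1 is known to be induced by interferon gamma. CD40 receives CD40 ligand from helper T cells and raises the costimulatory state of dendritic cells, and endothelial cells can carry it too. CD200 restrains myeloid cells through CD200R1, CD47 restrains phagocytes through SIRP alpha and also binds thrombospondin 1, galectin-9 (Lgals9) is a secreted lectin, and Tnfrsf14 (HVEM) binds BTLA, CD160 and LIGHT.

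The genes Cd80, Cd86, Cd200 and Cd47 lie on chromosome 16, and those of the PD-1 ligands neighbour each other on chromosome 19, in the GENCODE M21 annotation of GRCm38. Cd80 (ENSMUSG00000075122) spans chr16:38455561-38496335 on the plus strand. Cd274 (ENSMUSG00000016496) spans chr19:29367455-29388095 and Pdcd1lg2 (ENSMUSG00000016498) chr19:29410919-29471161, both on the plus strand. Cd40 (ENSMUSG00000017652) spans chr2:165055627-165072948 on the plus strand, and Lgals9 (ENSMUSG00000001123) spans chr11:78962974-78984946 on the minus strand. The promoter windows of RefSeq (GRCm38.p6; 250 bases before to 50 after a gene's start, read along the gene's strand) matched 7 of the 9 genes in 8 windows. Cd86 and Cd40 had no window and are named only. Each window was searched on both strands for an interferon-type element (GAAA, any 2 bases, GAAA; in 3.44% of 32851 windows of this length), a STAT-type element (TTCNNNGAA, in 8.30%), an AP-1-type element (TGANTCA, in 7.81%) and an NF-kB-type element (GGG, any 2 bases, TTTCC; in 1.63%). The 3 windows below are those of Cd80 and Cd274, whose Lang-DTA levels are described at length, and of Lgals9, which held 2 interferon-type matches. Capitals mark the matches. In Cd80 (chr16:38458683-38458982, plus strand) an AP-1-type match took bases 209 to 215 of the window, and this RefSeq start lies inside the span annotated by GENCODE. In Lgals9 (chr11:78984875-78985174, minus strand) the interferon-type matches took bases 196 to 205 and 266 to 275 and did not overlap. Cd274 (chr19:29367188-29367487, plus strand) held none of the 4 elements in its window. Beyond these 3 genes, Tnfrsf14 held an interferon-type match at bases 187 to 196. A match describes letters only, and no binding was measured.
Cd80: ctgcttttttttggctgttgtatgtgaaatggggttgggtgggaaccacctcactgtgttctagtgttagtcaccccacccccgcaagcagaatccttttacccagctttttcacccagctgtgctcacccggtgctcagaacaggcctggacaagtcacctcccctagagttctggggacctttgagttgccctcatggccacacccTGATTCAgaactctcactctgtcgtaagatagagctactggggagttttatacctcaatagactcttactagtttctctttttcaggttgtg
Cd274: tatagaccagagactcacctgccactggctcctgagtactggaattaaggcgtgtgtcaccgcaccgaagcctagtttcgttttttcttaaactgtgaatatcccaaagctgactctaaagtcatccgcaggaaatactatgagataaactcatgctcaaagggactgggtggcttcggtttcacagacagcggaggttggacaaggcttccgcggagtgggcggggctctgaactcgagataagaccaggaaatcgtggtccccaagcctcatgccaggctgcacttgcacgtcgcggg
Lgals9: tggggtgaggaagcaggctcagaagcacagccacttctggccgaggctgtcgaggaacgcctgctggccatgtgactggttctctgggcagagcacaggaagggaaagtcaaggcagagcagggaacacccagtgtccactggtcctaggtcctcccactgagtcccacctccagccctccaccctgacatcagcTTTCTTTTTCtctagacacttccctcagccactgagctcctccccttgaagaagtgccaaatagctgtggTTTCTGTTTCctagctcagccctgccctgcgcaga

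The libraries held 13540 (adult Lang-DTA), 13600 (adult WT) and 12864 (young WT) barcodes with 124590777, 128595813 and 137441575 UMIs in the same order, and 39 to 50 barcode sequences were shared by each pair of libraries. After filters and removal of called doublets, 12271 adult Lang-DTA, 11984 adult WT and 11784 young WT cells were analysed. Prox1 cells (at least 2 Prox1 UMIs; Prox1 is the defining transcription factor of lymphatic endothelium) were split by their summed UMIs of Gdf15 and Gpnmb. The Gdf15/Gpnmb-high side (at least 4 UMIs) held 981 adult Lang-DTA, 120 adult WT and 486 young WT cells, and the low side (at most 1 UMI) held 967, 1229 and 2980. All 8 lymphatic markers checked were above 20 CPM (UMIs of a gene per 1000000 UMIs of the gate) on both sides in every library. The gate gene Prox1, whose presence the gate fixes, was among these markers. Blood endothelial cells (at least 3 UMIs of Cdh5 and Ptprb, none of Prox1 and Mmrn1) numbered 2464, 3263 and 1650, and keratinocytes (at least 0.3% of UMIs from Krt5 and Krt14) 2512, 2296 and 1258, again in the order adult Lang-DTA, adult WT, young WT. The Cd207 gate (at least 2 UMIs) held 9 adult Lang-DTA cells, against 413 adult WT and 561 young WT cells. Those 9 cells did not carry the Langerhans pattern. They had 7.92 CPM of Epcam, against 1138 CPM in adult WT and 1258 CPM in young WT, and 372 CPM of the dendritic gene Xcr1. Ratios needed at least 10 cells of a gate in each library, so these 9 cells enter no ratio. The C1q gate (at least 5 UMIs of C1qa, C1qb and C1qc) held 130, 64 and 237 cells. All 9 macrophage markers, the gate genes included, were above 20 CPM in them. The Ccr7 gate (at least 2 UMIs of Ccr7 with at least 1 of Ptprc) held 53, 53 and 38 cells, and 16, 32 and 16 of these carried CD3 UMIs. The CD3-negative remainder (37 adult Lang-DTA, 21 adult WT and 22 young WT cells) had all 8 migratory dendritic markers, the gate gene Ccr7 included, above 20 CPM. Of its cells 0 adult Lang-DTA, 8 adult WT and 1 young WT cells also met the Cd207 gate, and 2 of the adult WT cells also met the C1q gate. This remainder is used below for dendritic cells, a choice made after these values were seen.

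**Figure D1:**
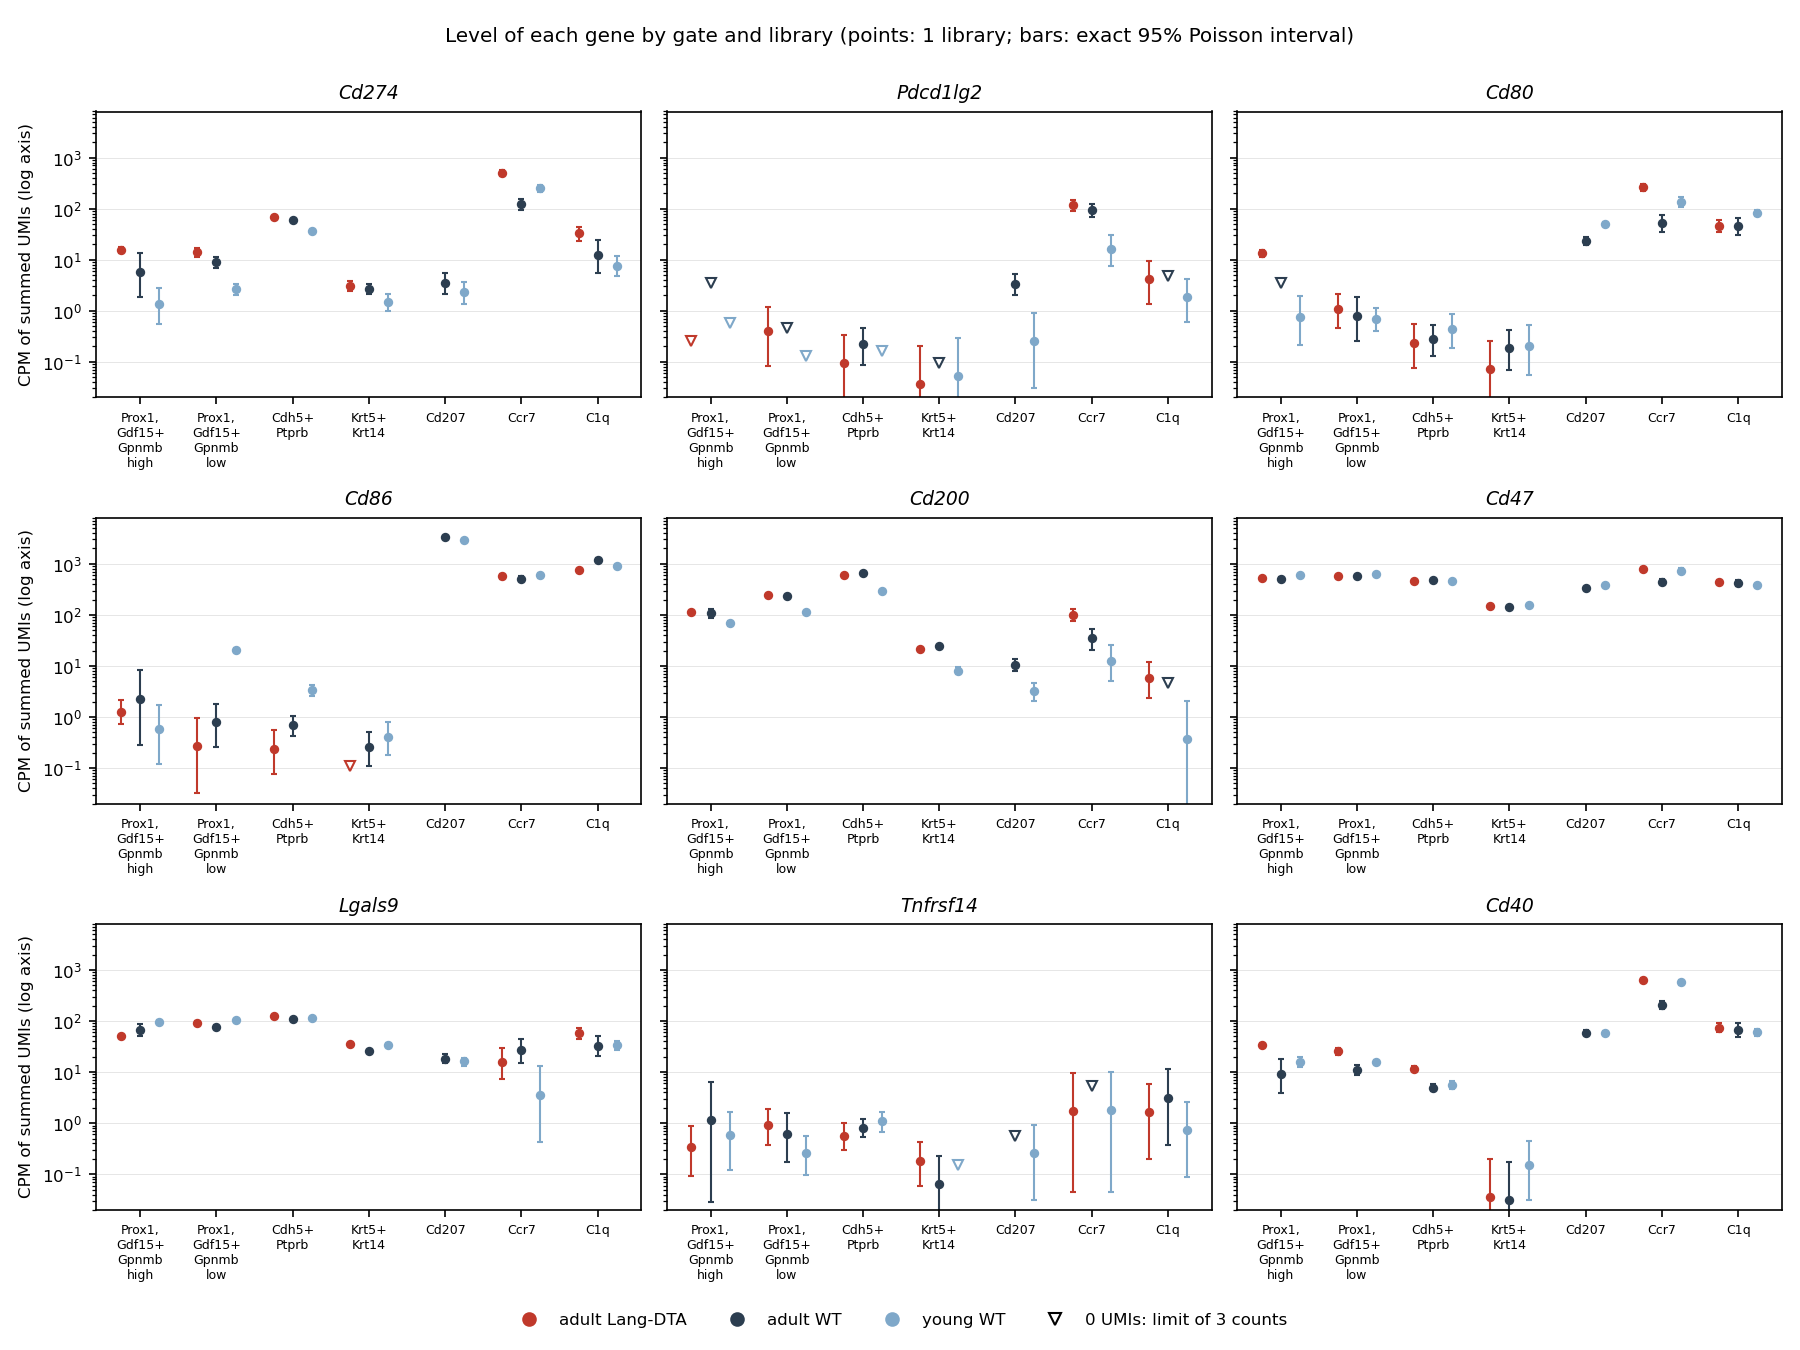
Level of each of the 9 genes (log axis, CPM of summed UMIs) in the 7 gates of the 3 libraries. Each point is 1 library, bars are exact 95% Poisson intervals, open triangles mark the limit of 3 counts where a gene had 0 UMIs, and the 9 adult Lang-DTA cells of the Cd207 gate are not drawn. Cd80, Cd86, Cd40 and Pdcd1lg2 are highest in immune gates, Cd200 in the blood endothelial gate, and Cd80 and Cd40 stand higher in adult Lang-DTA than in adult WT Prox1 cells of the Gdf15/Gpnmb-high side.

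Adult Lang-DTA lymphatic cells differed from adult WT ones in 3 of the ligand and receptor genes. Cd40 and Cd274 were higher on both sides of the Gdf15/Gpnmb split, and Cd80 was higher on the high side. On the low side Cd80 had 8 adult Lang-DTA and 5 adult WT UMIs (1.07 and 0.778 CPM), too few for a call. Cd200, Cd47 and Lgals9 stayed within 1.5-fold on both sides. Cd80, the CD28 and CTLA-4 ligand, had 158 UMIs or 13.4 CPM (95% interval 11.4 to 15.7) in Gdf15/Gpnmb-high cells of the adult Lang-DTA library. The same gate had 0 Cd80 UMIs of 876379 in adult WT and 4 UMIs or 0.768 CPM in young WT. Set against 3 counts in the adult WT library, the adult Lang-DTA level was 3.92-fold higher, and the exact 95% interval of the ratio began at 3.15-fold. Over all Prox1 cells, the cells between the sides included, Cd80 had 168 adult Lang-DTA, 5 adult WT and 21 young WT UMIs. Its levels were 7.93 CPM in adult Lang-DTA, 0.641 CPM in adult WT and 0.677 CPM in young WT. The adult Lang-DTA to adult WT ratio was 12.4 (5.19 to 38.6). The high side made up 45.4% of adult Lang-DTA and 8.36% of adult WT Prox1 cells, so this ratio compares unlike mixes of the sides. In that wider gate Cd40 (2.68, 2.15 to 3.39) and Cd274 (1.71, 1.30 to 2.27) were the other genes past 1.5-fold, so 3 of 7 measurable genes were higher and 0 lower, where 26.7% of 13911 genes were higher and 20.6% lower.

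Cd80 was detected in 86 of the 981 adult Lang-DTA cells of the Gdf15/Gpnmb-high side, 8.77% (exact binomial 95% interval 7.07 to 10.7), against 0 of 120 adult WT cells and 3 of 486 young WT cells. For 0 of 120 cells the limit of 3 counts allows a share of up to 2.50% and the exact binomial interval one of up to 3.03%, at a median depth of 6726 UMIs, against 11384 in the adult Lang-DTA cells. After every cell was thinned to 3000 UMIs, with the 20 adult Lang-DTA, 10 adult WT and 6 young WT cells below that depth left out, the shares were 3.54%, 0% and 0% in the same order. In keratinocytes, which read the free RNA of the suspension, 0.0796% of adult Lang-DTA cells had a Cd80 UMI at a median depth of 10890 UMIs. The 86 positive cells had 586 CPM of Prox1, which the gate requires, 496 CPM of Lyve1 and 395 CPM of Cdh5. They had 0 UMIs of Ptprc, the pan-leukocyte gene, and of Cd74, the class II invariant chain. The 895 cells without a Cd80 UMI had higher levels of Prox1, Lyve1 and Cdh5, at 907, 914 and 605 CPM. Median depth was 13186 UMIs in the positive cells, against 11269. Of these 86 cells 38 also held Cd40 UMIs and 5 held Cd274 UMIs, where 254 and 65 of all 981 did.

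Within the adult Lang-DTA library, Cd80 followed the Gdf15/Gpnmb split: it had 13.4 CPM on the high side and 1.07 CPM on the low side, a ratio of 12.6 (6.22 to 29.6), with 1.04 CPM in the 212 cells between. No such difference was visible in young WT, with 0.768 CPM on the high side and 0.687 CPM on the low side. These rested on 4 and 16 UMIs (ratio 1.12, 0.272 to 3.46). Of the 15 young WT low-side cells with a Cd80 UMI, 4 held Ptprc and 2 held Cd207 UMIs. Cd200, the myeloid-restraining ligand, was by contrast lower on the high side in all 3 libraries. It had 115 CPM on the high side and 248 CPM on the low side in adult Lang-DTA, 108 and 235 CPM in adult WT, and 67.7 and 116 CPM in young WT, giving high over low ratios of 0.462 (0.430 to 0.496), 0.462 (0.372 to 0.569) and 0.584 (0.521 to 0.653). Lgals9 had 50.3 CPM on the high side and 93.7 CPM on the low side in adult Lang-DTA (ratio 0.536, 0.480 to 0.599), whereas its ratios in adult WT (0.890) and young WT (0.925) stayed within 1.5-fold. Cd40, Cd274 and Cd47 had high over low ratios of 1.33, 1.11 and 0.915 in adult Lang-DTA, so their levels did not part with the split by 1.5-fold. In that library 1 of 6 measurable genes of the set was past 1.5-fold higher and 2 were lower, where 19.5% of 13077 genes were higher and 26.5% lower. In adult WT 0 of 5 were higher and 2 lower (7.81% and 20.4% of all genes), and in young WT 0 of 7 were higher and 3 lower (3.48% and 18.6%). Median-of-ratios scaling takes an offset of -0.12 off the adult Lang-DTA log2 ratios of high over low, which raises them. Ratios here and below use genes with at least 20 UMIs over both sides.

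**Figure D2:**
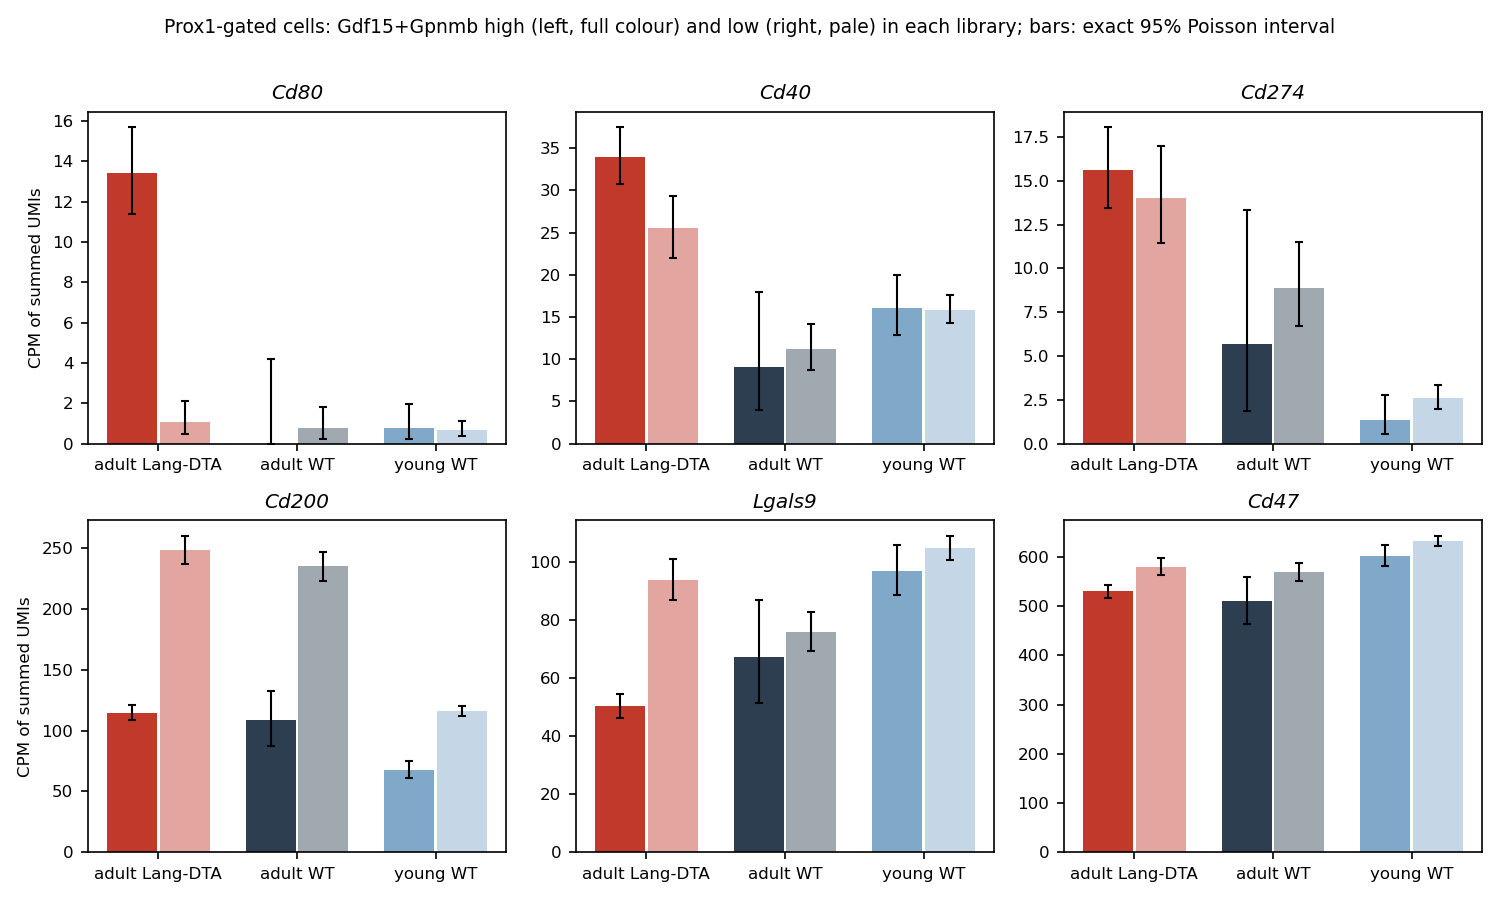
CPM of summed UMIs of 6 genes in Prox1 cells of the Gdf15/Gpnmb-high side (left bar, full colour) and low side (right bar, pale) in each library, with exact 95% Poisson intervals. Cd80 stands at 13.4 CPM on the high side of adult Lang-DTA and below 1.1 CPM wherever else it was counted, while Cd200 is lower on the high side in each library.

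Cd40, the receptor for CD40 ligand, was higher in every endothelial gate of the adult Lang-DTA library. On the Gdf15/Gpnmb-high side it had 34.0 CPM in adult Lang-DTA, 9.13 CPM in adult WT and 16.1 CPM in young WT, and on the low side 25.5, 11.2 and 15.8 CPM. Blood endothelial cells had 11.8, 4.95 and 5.62 CPM in the same order. Both WT libraries lay below the adult Lang-DTA library in all 3 gates, and their intervals did not reach it. The adult Lang-DTA to adult WT ratios were 3.72 (1.87 to 8.68), 2.27 (1.73 to 3.03) and 2.38 (1.94 to 2.92), and each stayed past 1.5-fold under all 10 alternatives run for it. Cd40 UMIs were found in 25.9% of adult Lang-DTA, 5.83% of adult WT and 13.8% of young WT cells on the high side, and in 9.16%, 1.82% and 4.38% after thinning. Keratinocytes held 1, 1 and 3 Cd40 UMIs in the 3 libraries, with 0.0398% of adult Lang-DTA cells positive.

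Cd274, the PD-1 ligand, was less even over cells. Its level on the high side was 15.6 CPM in adult Lang-DTA, 5.71 CPM in adult WT and 1.34 CPM in young WT, and on the low side 14.0, 8.87 and 2.62 CPM. The adult Lang-DTA to adult WT ratios were 2.74 (1.15 to 8.53) and 1.58 (1.13 to 2.22). In adult Lang-DTA, 5 cells carried 56.0% of the UMIs on the high side and 48.6% on the low side, and 1 cell alone held 45. With stricter gates the low-side log2 ratio was -0.44, against 0.66 as reported, and with called doublets kept the high-side log2 ratio was 0.23, against 1.45. Pdcd1lg2 and Cd86, both ligands typical of dendritic cells, were near 0 in these lymphatic cells: Pdcd1lg2 had 0 to 3 UMIs per side and library, and Cd86 stayed at or under 2.28 CPM in the adult libraries.

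On the high side 3 of 6 measurable genes of the set were called higher and 0 lower, where 31.3% of 12147 genes were called higher and 22.5% lower. On the low side 2 of 5 were called higher and 0 lower, where 18.4% of 12493 genes were higher and 12.9% lower. Their median log2 ratios were 0.77 on the high side, against 0.12 over all genes, and 0.31 on the low side, against 0.07. The cells compared were not alike in other respects. High-side cells had 4092 CPM of Gdf15 in adult Lang-DTA, 2033 CPM in adult WT and 1652 CPM in young WT, and 807, 43.4 and 41.4 CPM of Gpnmb. The summed lymphatic marker list was 5278, 13381 and 11194 CPM, the keratinocyte list 45.4, 405 and 21.3 CPM, the fibroblast list 30.8, 1046 and 19.6 CPM, and the list of 8 genes induced by tissue dissociation 7566, 22859 and 19306 CPM. On the low side the dissociation list was 7864 CPM in adult Lang-DTA, 16017 CPM in adult WT and 11216 CPM in young WT. Their part in the member differences was not tested. The blood endothelial gate had 13426, 15423 and 13621 CPM of the dissociation list.

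In blood endothelium the set was otherwise steady between genotypes. Cd274 had 68.2 CPM in adult Lang-DTA and 60.9 CPM in adult WT, Cd200 593 and 649 CPM, Cd47 464 and 480 CPM, and Lgals9 127 and 109 CPM, with ratios from 0.914 to 1.16. Of 7 measurable genes 1 was higher (Cd40) and 1 lower (Cd86, with 5 UMIs in adult Lang-DTA and 22 in adult WT), where 8.01% of 14602 genes were higher and 5.05% lower. Keratinocytes had 0 of 4 called in either direction, where 2.86% of 13978 genes were higher and 3.87% lower. Cd47 there had 147 CPM in adult Lang-DTA and 142 CPM in adult WT, Cd200 21.1 and 24.1 CPM, Cd274 3.09 and 2.64 CPM, and Lgals9, the gene nearest to the threshold, 35.7 and 25.4 CPM (ratio 1.41, 1.28 to 1.54).

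**Figure D3:**
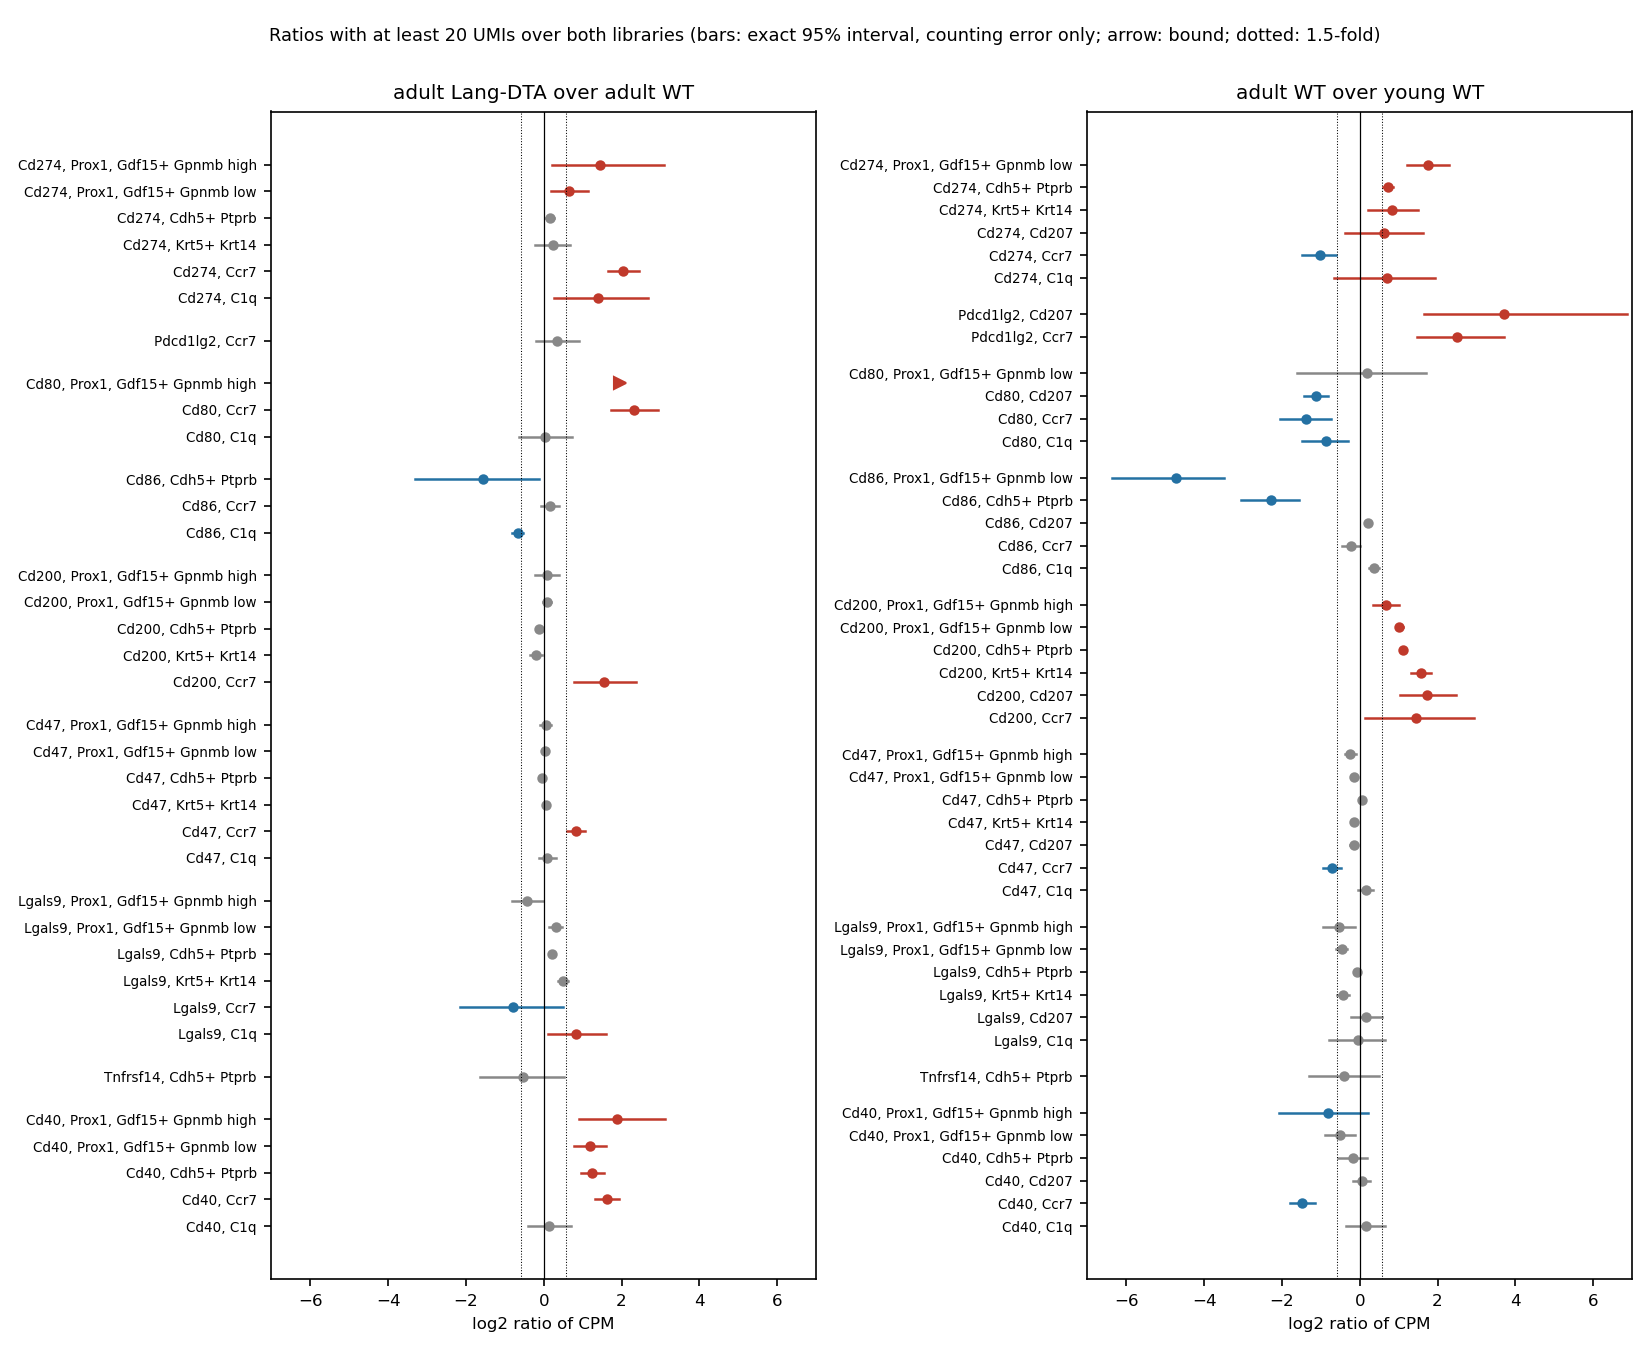
Log2 ratios of CPM for each gene and gate with at least 20 UMIs over both libraries, adult Lang-DTA over adult WT (left) and adult WT over young WT (right). Bars are exact 95% intervals for counting error, the arrow is the Cd80 bound against 3 counts, dotted lines mark 1.5-fold, and red and blue mark ratios past it. Cd40 lies right of 1.5-fold in both lymphatic gates, the blood endothelial gate and the Ccr7 gate on the left, and Cd200 lies right of it in 6 gates on the right.

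Ccr7-positive dendritic cells without CD3 held the highest Cd274 and Cd40 levels of any gate in each library, and those levels were higher in adult Lang-DTA than in adult WT. Cd274 had 597 CPM in adult Lang-DTA, 135 CPM in adult WT and 340 CPM in young WT, and was found in 30 of 37, 6 of 21 and 15 of 22 cells. Cd80 had 319, 115 and 191 CPM, and Cd40 790, 397 and 812 CPM, in the same order. Adult WT was the lowest of the 3 libraries for each of these genes. The adult Lang-DTA to adult WT ratios were 4.42 (3.09 to 6.52) for Cd274, 2.77 (1.85 to 4.28) for Cd80 and 1.99 (1.59 to 2.51) for Cd40. Cd47, the phagocyte-restraining ligand, had 865 CPM in adult Lang-DTA, 508 CPM in adult WT and 878 CPM in young WT (adult Lang-DTA to adult WT ratio 1.70, 1.39 to 2.09). Without cells of several gates its log2 ratio was 0.43, and in cells called female 0.53, both within 1.5-fold. Cd200 had 122, 43.7 and 17.9 CPM (ratio 2.79, 1.44 to 5.90) from 55 adult Lang-DTA, 11 adult WT and 7 young WT UMIs, and in cells called male its log2 ratio was -0.57, against 1.48 over all cells. The calls for Cd274, Cd80 and Cd40 stood under all 9 alternatives run for these cells. Their log2 ratios ran from 1.42 to 5.07, from 0.72 to 2.24 and from 0.78 to 1.79. The highest value of each came without the 3 cells with most UMIs of the gene. The adult WT Cd274 level came from 34 UMIs, so the size of its ratio depended on few cells.

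The direction for Cd86 in these dendritic cells depended on the cells that also met the Cd207 gate. It had 703 CPM in adult Lang-DTA, 1116 CPM in adult WT and 850 CPM in young WT (adult Lang-DTA to adult WT ratio 0.631, 0.535 to 0.743). Without cells of several gates it had 703 CPM in 37 adult Lang-DTA cells, 186 CPM in 13 adult WT cells and 845 CPM in 21 young WT cells, and the log2 ratio was 1.92, against -0.67. Pdcd1lg2 had 148 CPM in adult Lang-DTA, 179 CPM in adult WT and 22.98 CPM in young WT, carried by 13 of 37, 5 of 21 and 3 of 22 cells. Its adult levels overlapped within their intervals, and its young level lay below both. Without cells of several gates the adult log2 ratio was -1.11, and without the 3 cells with most Pdcd1lg2 UMIs 2.40, against -0.27. In all 5 of 7 measurable genes were called higher in adult Lang-DTA and 1 lower, where 18.5% of 4928 genes were higher and 22.4% lower. With the CD3-positive cells kept in the Ccr7 gate, 5 of 8 were higher and 1 lower (14.7% and 26% of 6701 genes). The lower gene was then Lgals9, with 9 adult Lang-DTA and 15 adult WT UMIs (ratio 0.580, 0.224 to 1.42). Its call was kept in 5 of 11 alternatives. Cd86 in this whole gate had 576 CPM in adult Lang-DTA and 515 CPM in adult WT, within 1.5-fold. The 21 adult WT cells differed from the 37 adult Lang-DTA cells in markers of Langerhans cells, with 0 CPM of Cd207 and 13.3 CPM of Epcam in adult Lang-DTA, 965 and 310 CPM in adult WT, and 58.7 and 61.3 CPM in young WT. Ccr7 itself had 1962, 1445 and 1575 CPM and the dissociation list 2166, 4883 and 4296 CPM in the same order. The part of this mix in the ratios was not tested. Median-of-ratios scaling takes an offset of -0.12 off all log2 ratios of this gate, which raises them. In the age comparison it takes off 0.15, which lowers them.

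C1q macrophages expressed the same genes in other proportions. Cd86 was at 753 CPM in adult Lang-DTA, 1194 CPM in adult WT and 926 CPM in young WT, with dendritic over macrophage ratios of 0.934, 0.934 and 0.918. Without cells of several gates these ratios were 0.884, 0.265 and 1.003, so that in adult WT the dendritic level lay below the macrophage one. By contrast Cd274 had 32.7, 12.5 and 7.65 CPM in macrophages, and its dendritic level was 18.2-fold (13.1 to 26.1), 10.8-fold (4.89 to 26.9) and 44.4-fold (27.9 to 74.0) higher in the same order. Cd40 had 74.5, 67.4 and 60.1 CPM in macrophages and was 10.6-fold, 5.89-fold and 13.5-fold higher in dendritic cells, and Cd80 had 46.6, 45.4 and 82.7 CPM and was 6.83-fold, 2.53-fold and 2.31-fold higher. Cd274, Cd40 and Cd80 stayed at least 1.5-fold higher in dendritic cells of each library without cells of several gates. Lgals9 was lower in dendritic cells, with 58.1, 32.9 and 33.9 CPM in macrophages and 8.85, 15.9 and 5.11 CPM in dendritic cells. The dendritic values rested on 4, 4 and 2 UMIs, and the adult WT ratio of 0.483 had an interval (0.120 to 1.43) that held 1. Dendritic over macrophage, 6 of 8 measurable genes were higher and 1 lower in adult Lang-DTA (18.1% and 39.6% of all genes), 4 of 7 and 1 in adult WT (20.6% and 28.5%), and 4 of 6 and 1 in young WT (18.5% and 37.2%). Median-of-ratios scaling takes 0.16 off these log2 ratios in adult WT and 0.11 in young WT.

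Between adult genotypes, macrophages had higher Cd274 in Lang-DTA (ratio 2.61, 1.21 to 6.46) and higher Lgals9 (1.77, 1.07 to 3.03), and lower Cd86 (0.631, 0.572 to 0.695), where 16.4% of 8197 genes were higher and 8.11% lower. The Lgals9 call was lost in 3 of 10 alternatives (log2 ratio 0.39 without cells of several gates, 0.42 with stricter gates and 0.42 in cells called male, against 0.82). Cd274 rested on 40 adult Lang-DTA and 8 adult WT UMIs, and in cells called male its log2 ratio was -0.50. The Cd86 difference was carried by few cells: 5 of 64 adult WT cells held 39.2% of its UMIs, and with cells of several gates left out its log2 ratio was 0.18. Adult Lang-DTA cells of this gate had 54.0 CPM of Prox1 and 0 CPM of Cd207, against 0 and 536 CPM in adult WT and 1.46 and 280 CPM in young WT; the part of these differences was not tested.

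**Figure D4:**
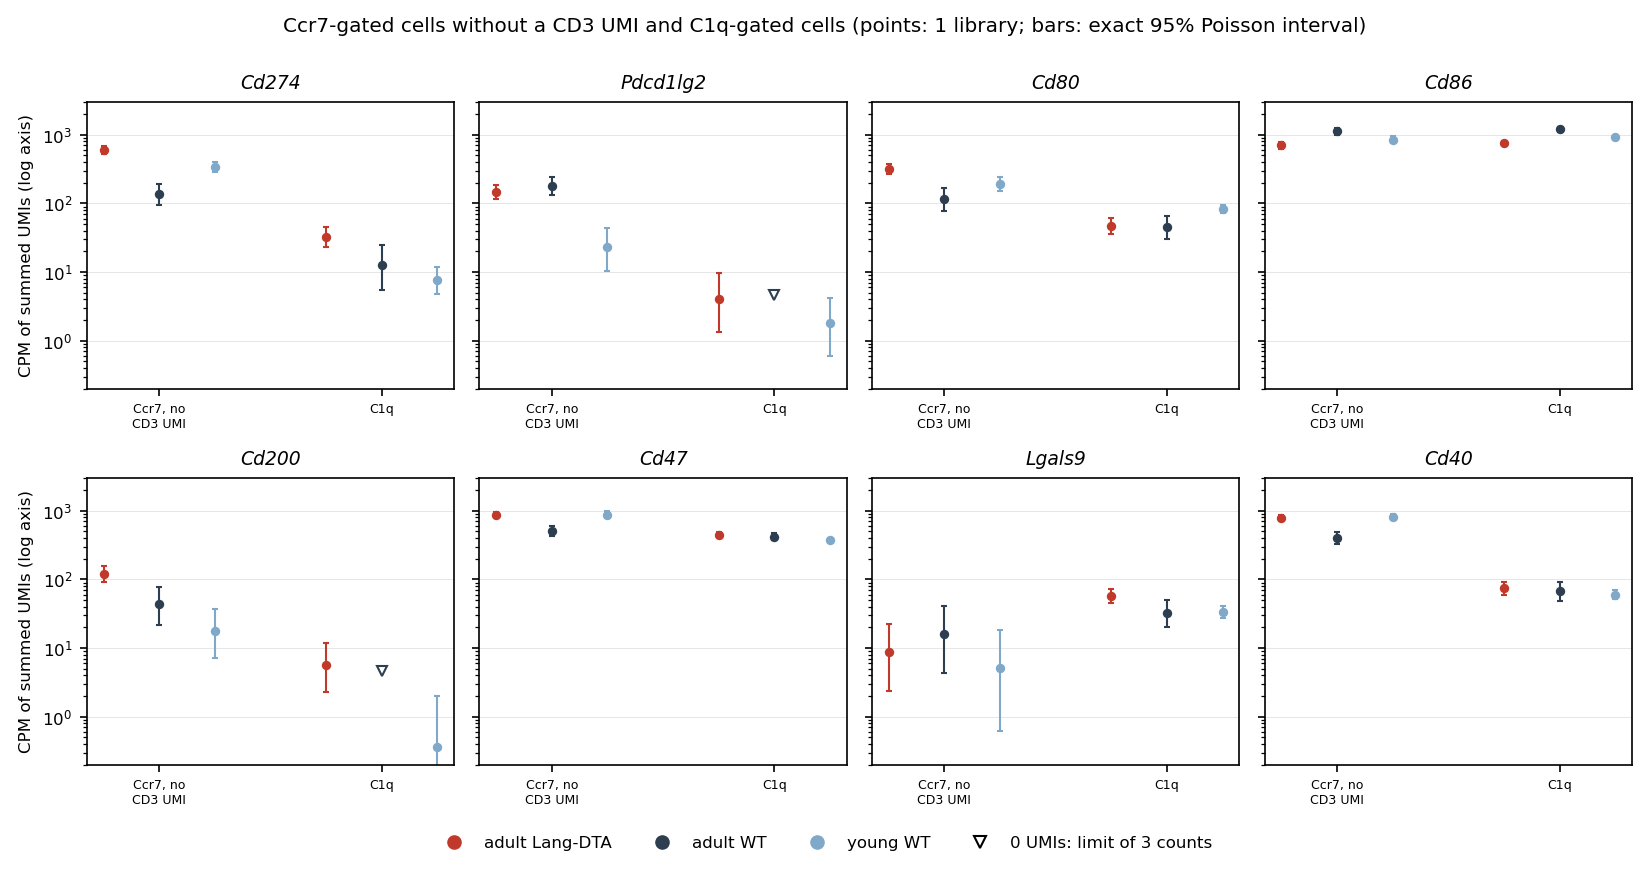
CPM of summed UMIs (log axis) of 8 genes in Ccr7 cells without a CD3 UMI and in C1q cells; points are 1 library each, bars are exact 95% Poisson intervals and open triangles the limit of 3 counts. Cd274 and Cd40 lie at least 5.89-fold higher in the Ccr7 cells of every library, and Cd86 lies near the same height in both gates (with the 8 adult WT cells of several gates counted). Lgals9 lies lower in the Ccr7 cells, from 4 adult Lang-DTA, 4 adult WT and 2 young WT UMIs there.

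The age comparison set adult WT against young WT. Cd200 was higher in adult WT in all 6 gates where it could be measured. It had 649 CPM in adult WT and 299 CPM in young WT blood endothelium (ratio 2.17, 2.11 to 2.23), 235 and 116 CPM in Gdf15/Gpnmb-low Prox1 cells (2.02, 1.90 to 2.15), and 24.1 and 8.10 CPM in keratinocytes (2.97, 2.50 to 3.55). The Cd207 gate had 10.6 CPM in adult WT and 3.19 CPM in young WT (3.33, 2.05 to 5.56). The whole Ccr7 gate, CD3-positive cells included, had 34.5 and 12.6 CPM (2.73, 1.10 to 7.69) from 19 and 7 UMIs. Its call was kept in 6 of 11 alternatives. The CD3-negative Ccr7 cells had 11 adult WT and 7 young WT UMIs, too few for a call. Cd200-positive cells made up 85.5% of adult WT and 74.4% of young WT blood endothelial cells, and 67.0% and 49.3% after thinning, which left out 206 and 86 cells. On the Gdf15/Gpnmb-high side, where Cd200 had 108 CPM in adult WT and 67.7 CPM in young WT, the call was lost with stricter gates (log2 ratio 0.43) and without the 3 cells with most UMIs (0.55). The adult Lang-DTA library, with 593 CPM in blood endothelium and 248 CPM in low-side Prox1 cells, lay near adult WT.

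Cd274 was also higher in adult than in young WT endothelium and keratinocytes. It had 60.9 CPM in adult WT and 36.7 CPM in young WT blood endothelium (1.66, 1.52 to 1.81), 8.87 and 2.62 CPM in low-side Prox1 cells (3.39, 2.32 to 4.94), and 2.64 and 1.49 CPM in keratinocytes (1.78, 1.15 to 2.81). In cells called female the blood endothelial log2 ratio was 0.58, just within 1.5-fold. In the CD3-negative Ccr7 cells the order was reversed, with 135 CPM in adult WT and 340 CPM in young WT (0.398, 0.264 to 0.583). Without the 3 cells with most Cd274 UMIs the log2 ratio there was -3.56, against -1.33. Cd40 and Cd80 were lower in adult WT in the CD3-negative Ccr7 cells as well, with ratios of 0.489 and 0.601. The Cd80 call was lost without cells of several gates (log2 ratio -0.58), with stricter gates (-0.49) and in cells called female (-0.51). Pdcd1lg2 was higher in adult WT, by 7.78-fold (3.75 to 18.1) in the CD3-negative Ccr7 cells and 13.1-fold (3.15 to 117) in the Cd207 gate. Few cells carried it: 45 UMIs in 5 of 21 adult WT and 9 UMIs in 3 of 22 young WT Ccr7 cells. The Cd207 gate had 18 UMIs in 9 adult WT cells and 2 UMIs in 2 young WT cells. In the Ccr7 cells the log2 ratio was 0.57 in cells called male, against 2.96, with too few UMIs there for a call. In the Cd207 gate it stayed between 2.28 and 3.80 in 10 alternatives, 5 of which left too few UMIs for a call.

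The Cd207 gate had all 6 Langerhans markers, Cd207 itself included, above 20 CPM in both WT libraries. In it Cd86 was found in 99.3% of adult WT and 98.8% of young WT cells at 3326 and 2880 CPM, its highest level in any gate (ratio 1.15). Cd80 had 22.9 CPM in adult WT and 49.7 CPM in young WT (0.461, 0.373 to 0.565), and Cd40 had 59.7 and 57.7 CPM. Cd80 was lower in adult WT in macrophages too, at 45.4 and 82.7 CPM (0.549, 0.360 to 0.810), a call lost in 3 of 10 alternatives (log2 ratio -0.45 without cells of several gates, -0.38 with stricter gates and -0.57 in cells called female, against -0.86). A young WT level of Cd86 in low-side Prox1 cells (20.6 CPM, against 0.778 CPM in adult WT) came from 35 of 2980 cells, of which 11 held Cd207 and 14 held Ptprc UMIs, with 8942 CPM of Cd74 and 1227 CPM of Cd207 over the 35. Without Ptprc-positive cells the log2 ratio was -0.30, against -4.73 with them.

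The set's counts over age, higher then lower in adult WT, were 1 and 1 of 4 measurable genes on the Gdf15/Gpnmb-high side (9.67% and 18.2% of all genes), 2 and 1 of 7 on the low side (7.6% and 14.6%), and 2 and 1 of 7 in blood endothelium (6.66% and 12.2%). They were 2 and 0 of 4 in keratinocytes (7.34% and 8.31%), 3 and 1 of 8 in the Cd207 gate (7.56% and 11%), 1 and 1 of 6 in macrophages (12% and 16.6%), and 1 and 4 of 6 in CD3-negative Ccr7 cells (24% and 19.2%). Over all Prox1 cells 2 of 7 were higher and 1 lower (8.83% and 13.6%). In the whole Ccr7 gate 2 of 7 were higher and 4 lower (22.1% and 17%). Both comparisons share the adult WT library, so an adult WT value that lies low raises the first ratio and lowers the second. Median-of-ratios scaling takes offsets of -0.10 on the low side, -0.11 in blood endothelium and -0.10 in keratinocytes off the log2 ratios over age, which raises them. All 41 calls examined for the 7 gates stayed under it.

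Cells outside all 7 gates were split into those with at least 2 CD3 UMIs (1413 adult Lang-DTA, 1748 adult WT and 1479 young WT cells), those with at least 2 Ptprc UMIs and no CD3 UMI (269, 319 and 547), and those with no UMI of either (3173, 2266 and 2205). Cd274 and Cd200 were higher in adult WT than in young WT in all 3 classes. Cd200 had 2.37 CPM in adult WT and 1.31 CPM in young WT CD3-positive cells (ratio 1.80, 0.969 to 3.45), an interval that held 1. It had 9.41 and 1.35 CPM in Ptprc-positive cells, from 27 and 9 UMIs, and 198 and 123 CPM in cells with neither. Cd274 had 37.1 CPM in adult WT and 22.3 CPM in young WT CD3-positive cells, 87.1 and 54.1 CPM in Ptprc-positive cells, and 12.5 and 6.30 CPM in cells with neither. Cd86 and Cd80 were lower in adult WT in the Ptprc-positive class, at 403 and 74.9 CPM in adult WT and 814 and 133 CPM in young WT. Over age 4 of 8 members were higher and 1 lower in CD3-positive cells (8.7% and 9.82% of all genes), 4 of 9 and 2 in Ptprc-positive cells (22.9% and 13.3%), and 3 of 8 and 2 in cells with neither (10.8% and 11.6%). Adult Lang-DTA over adult WT, 4 of 9 were higher and 0 lower in CD3-positive cells (5.83% and 4.06%), 0 of 8 and 1 in Ptprc-positive cells (6.53% and 11.6%), and 3 of 8 and 0 in cells with neither (9.49% and 7.41%). Cd40 in the Ptprc-positive class had 28.7 CPM in adult Lang-DTA and 40.1 CPM in adult WT (ratio 0.715, 0.510 to 0.992), so its higher Lang-DTA level was not found in this class. It was higher in adult Lang-DTA in the other classes. CD3-positive cells had 32 adult Lang-DTA UMIs and 1 adult WT UMI, and cells with neither had 4.91 and 1.17 CPM.

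Ranked within adult WT, Cd274 was highest in CD3-negative Ccr7 cells (135 CPM) and then in blood endothelium (60.9 CPM), with the next gates apart from both: macrophages at 12.5 CPM, low-side and high-side Prox1 cells at 8.87 and 5.71 CPM, the Cd207 gate at 3.54 CPM and keratinocytes at 2.64 CPM. Intervals of neighbours overlapped from macrophages down. Cd200 ran from blood endothelium (649 CPM) over low-side (235 CPM) and high-side Prox1 cells (108 CPM) to CD3-negative Ccr7 cells (43.7 CPM), keratinocytes (24.1 CPM) and the Cd207 gate (10.6 CPM), with macrophages at 0 UMIs; of these steps only that between Ccr7 cells and keratinocytes lay within overlapping intervals. Cd47 was the most even gene, from 142 CPM in keratinocytes to 569 CPM in low-side Prox1 cells. Tnfrsf14 stayed at or under 3.13 CPM in all 7 gates of the 3 libraries and supports no comparison.

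Over 20 gate-by-library profiles, in which the Ccr7 gate kept its CD3-positive cells, the genes whose log2(CPM + 1) pattern was most like a member's (Pearson r, a description over profiles that share libraries) were Fam105a, Napsa and H2-Aa for Cd86 (0.990 for the first) and Gpr137b, Dok1 and Ikbkb for Cd40 (0.972). They were Selplg, Adap1 and Myo1g for Cd80 (0.959), Ms4a4b, Trbc1 and Ccr6 for Pdcd1lg2 (0.963), and Ankrd33b, Cd247 and H2-Q6 for Cd274 (0.951). For Cd47 they were Apobec3, Cbfa2t3 and D130040H23Rik (0.953), for Cd200 E2f7, Dennd5b and Mphosph8 (0.941), and for Lgals9 Cep112, Mesd and Maml2 (0.937). Among the members themselves Cd80 and Cd86 correlated at 0.891, Cd274 and Pdcd1lg2 at 0.720, and Cd80 and Lgals9 at -0.704.

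Partner receptors and other ligands were read from 2 lists. Of 12 receptors and binding partners, 3 could be measured on the Gdf15/Gpnmb-high side and 1 was higher in adult Lang-DTA: Thbs1, the CD47 ligand thrombospondin 1, with 303 CPM in adult Lang-DTA, 11.4 CPM in adult WT and 99.4 CPM in young WT (31.3% of all genes were higher in this gate and 22.5% lower). On the low side 3 of 5 were higher and 0 lower (18.4% and 12.9%), with Thbs1 at 215, 39.8 and 84.6 CPM, and in blood endothelium 2 of 5 were higher and 0 lower (8.01% and 5.05%), with Thbs1 at 35.7, 20.2 and 32.3 CPM. In macrophages 2 of 6 were higher and 1 lower (16.4% and 8.11%). Thbs1 there had 35.2 CPM in adult Lang-DTA and 6.27 CPM in adult WT, from 43 and 4 UMIs. The lower one was the TIM-3 gene Havcr2, with 38.5 CPM in adult Lang-DTA and 143 CPM in adult WT. CD3-negative Ccr7 cells had 1 of 5 higher and 1 lower (18.5% and 22.4%). These were Thbs1, with 139 and 3.97 CPM from 63 UMIs and 1 UMI, and Havcr2, with 59.7 and 143 CPM. In keratinocytes 0 of 3 were called (2.86% and 3.87%), with Thbs1 at 688 and 578 CPM. Of 20 other ligands, 8 could be measured on the high side: 2 were higher (Pvr, ligand of TIGIT and CD226, with 78.7 CPM in adult Lang-DTA and 19.4 CPM in adult WT, and Lgals3, galectin-3, with 171 and 31.9 CPM) and 3 lower (Vsir, the VISTA gene, with 12.6 and 45.6 CPM, H2-T23 with 68.3 and 153 CPM, and Cd24a with 249 and 751 CPM), beside 31.3% and 22.5% of all genes. The other gates had 1 of 9 higher and 2 lower on the low side, 1 of 10 and 0 in blood endothelium, 1 of 13 and 1 in keratinocytes (2.86% and 3.87% of all genes), and 1 of 8 and 1 in macrophages. CD3-negative Ccr7 cells had 4 of 7 higher and 2 lower (18.5% and 22.4%), and among the higher ones was Tnfsf9, the 4-1BB ligand, with 577 CPM in adult Lang-DTA, 206 CPM in adult WT and 579 CPM in young WT.

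Genes of the response to interferon gamma, the cytokine known to induce PD-L1, did not all go one way. Of 14 listed, 7 were higher and 3 lower in adult Lang-DTA than in adult WT on the Gdf15/Gpnmb-high side, where 31.3% and 22.5% of all genes were, and their median log2 ratio was 0.80, against 0.12 over all genes. On the low side 6 of 13 were higher and 2 lower (18.4% and 12.9% of all genes), in blood endothelium 2 of 14 and 0 (8.01% and 5.05%), in keratinocytes 0 of 14 and 2 (2.86% and 3.87%), in macrophages 6 of 14 and 1 (16.4% and 8.11%), and in CD3-negative Ccr7 cells 5 of 11 and 1 (18.5% and 22.4%). Cxcl10 had 181 CPM in adult Lang-DTA and 0 UMIs in adult WT on the high side, and B2m 1558 and 529 CPM, while Irf1 had 229 and 593 CPM. Over age, 9 of 14 were higher in adult WT and 1 lower on the low side (7.6% and 14.6% of all genes), 10 of 14 and 0 in keratinocytes (7.34% and 8.31%), 3 of 14 and 0 in blood endothelium (6.66% and 12.2%), and 2 of 9 and 2 in CD3-negative Ccr7 cells (24% and 19.2%). The part of these genes in the Cd274 differences was not tested.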

How the data were processed

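Ear skin cells of 3 libraries (10x Genomics 3′ v4 chemistry, 29000 cells loaded to capture 20000) were deposited as whole-number UMI counts per gene and barcode, the authors' filtered matrices. The counting tool was Cell Ranger, in version 8.01 per the submitters' processing notes and 8.0.1 per the file headers, and the build GRCm38, per the same notes. An imiquimod condition named in the labels was not analysed here.

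Barcodes were kept where 500 or more genes and 1000 or more UMIs were found and mitochondrial UMIs did not exceed 10% (12941 adult Lang-DTA, 12621 adult WT, 12399 young WT), and 670, 637 and 615 were removed as doublets scored against simulated pairs. Median depth was 8189, 7966 and 9568 UMIs per barcode. Gates were set on raw UMIs, and 4948, 4481 and 4341 cells fell in no gate. Counts were summed per gate and library and scaled to CPM, with exact 95% Poisson intervals, exact conditional intervals for ratios and exact Clopper-Pearson intervals for shares. A ratio was called past 1.5-fold with at least 20 UMIs over both sides. A gene at 0 was set to 3 counts in its library, giving a bound. Shares were also taken after thinning to 3000 UMIs. With 1 library per condition there was no test. Counting was checked on simulated data with known ratios. The work used scikit-learn 1.9.0 and scipy 1.17.1 with numpy 2.4.6, matplotlib 3.10.9 and pandas 2.3.3 under Python 3.11.15.

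The members, the gates and the gene lists were chosen with earlier results of these data known. All 9 members are described in every gate. Named genes of the ligand and receptor lists had at least 20 UMIs over both sides, 20 CPM in the higher one and a 1.5-fold difference, or were taken as the 3 most correlated genes per member. Alternatives were other gates, doublet, barcode and sex filters, scalings, equal weight per cell, other thresholds and, added after the data were seen, CD3-negative Ccr7 cells (also combined with the other alternatives), gates without Ptprc-positive cells, and leaving out the 3 cells with most UMIs of a gene.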

Additional observations from a re-analysis of the deposited data

Results flagged for a closer look

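Cd274 differed in direction between gates over age. The adult WT to young WT log2 ratio was 1.76 in low-side Prox1 cells, 0.73 in blood endothelium and 0.83 in keratinocytes, and -1.03 in the Ccr7 gate. With 1 library per age the difference between gates was not tested.

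Some member UMIs lay in cells outside all 7 gates. In ungated cells with at least 2 CD3 UMIs, the adult Lang-DTA to adult WT log2 ratio was 1.49 for Cd80, 1.88 for Cd86 and 5.57 for Cd40. Cd40 there rested on 32 UMIs in 5 adult Lang-DTA cells and 1 UMI in 1 adult WT cell, a ratio of 47.4 (95% interval 7.93 to 1932, counting error only). Cd80 had 140 UMIs in adult Lang-DTA and 74 in adult WT, with 65.7% of the adult Lang-DTA UMIs in 5 cells, and Cd86 had 134 and 54 UMIs, with 53.7% in 5 cells. In ungated cells with no CD3 or Ptprc UMI the log2 ratio was 1.38 for Cd80, at 2.23 CPM in adult Lang-DTA and 0.857 CPM in adult WT, and 2.07 for Cd40, at 4.91 and 1.17 CPM.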

How the results depend on the processing

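Of 41 called ratios in the 7 gates 36 kept their sign under every alternative and 21 stayed called under all of them. Kept calls numbered 41 with no barcode filter and with median-of-ratios scaling, 40 with cells weighted equally, 39 without Ptprc-positive cells, 36 without cells of several gates, 34 with called doublets kept, 32 with stricter gates, 31 in cells called female, 30 without the 3 cells with most UMIs and 29 in cells called male. The next counts sum calls of a member in a gate over the 7 gates, so the same member can count several times. Calls higher in adult WT than in young WT numbered 13. They numbered 8 in cells called male, 21 with no minimum count, 8 at 2-fold and 7 without the 3 cells with most UMIs. Calls lower in adult Lang-DTA than in adult WT numbered 3. They numbered 10 with called doublets kept, 0 in cells called female, 10 with no minimum count, 1 at 2-fold and 1 without the 3 top cells. Shares over all genes under these settings are not given, so the shifts in these counts are not set against a background. On the Gdf15/Gpnmb split in adult Lang-DTA, 2 genes were higher with stricter gates and with no minimum count, against 1, and 1 was lower at 2-fold, against 2. Log2 ratios that changed sign, adult Lang-DTA over adult WT, were Cd274 in low-side Prox1 cells (-0.44, stricter gates) and in macrophages (-0.50, cells called male), and Cd86 in macrophages (0.18 without cells of several gates, 0.0037 with stricter gates). In CD3-negative Ccr7 cells they were Cd86 (1.92 without cells of several gates) and Cd200 (-0.572, cells called male). Over age they were Cd86 in blood endothelium (0.0383 with doublets kept, 0.13 in cells called female, 0.14 without Ptprc-positive cells) and Cd274 in the Cd207 gate (-1.20, cells called female). The causes were not tested. Cd40 in Gdf15/Gpnmb-high cells ranged over alternatives from 1.42 to 2.83 (log2, adult Lang-DTA over adult WT) and the Cd80 high over low ratio from 3.29 to 4.59. The Cd80 bound against adult WT fell to 0.42 in cells called male, where fewer cells were counted. No paired analysis was possible because each condition had 1 library. Depth limits Pdcd1lg2, Tnfrsf14 and Cd86 outside immune gates, and the 120 adult WT high-side cells limit every ratio on them.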
